A study of Mus musculus with 6 samples.

Results

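The clustered protocadherins are 3 neighbouring families of cell adhesion genes, alpha, beta and gamma, and every transcript row of the table that the RefSeq gene table assigned to a mouse symbol starting Pcdha, Pcdhb or Pcdhg was taken as a member. There were 57 such rows among the 32025 rows of the table, 14 alpha, 22 beta and 21 gamma, each of another gene and with no row repeating another. Of 58 genes with such symbols in the RefSeq table, all on chromosome 18, 57 had a row, and Pcdhgb8, annotated as a transcribed pseudogene, was not analysed here. The rows were taken by name and not by their values, but this set of genes was chosen with earlier results of these data known.

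The samples were neural stem cells of CD-1 albino mouse embryos at stage E14.5, grown in suspension as neurospheres, clusters of self-renewing neural precursors, under conditions that favour proliferation. One group received a mimic of the microRNA miR-128 by nucleofection, an electrical transfection, and the other received miR-Control in the same way. The labels name no other genetic change or treatment in either group, and they state that such cells do not normally express miR-128. RNA was collected 72 h afterwards, in biological triplicate per group, and 6 exon arrays were read, 1 per sample. How many embryos gave the cells and what share of them took up the RNA are not stated in the labels. Since a whole culture was measured, fewer cells of a type and less RNA per cell cannot be told apart. The design text states the aim as finding genes and transcript isoforms that respond to miR-128.

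Clustered protocadherins are cadherin-like membrane proteins that bind the same isoform on a neighbouring cell. A neuron switches on a small set of them, which gives it a surface identity used in self-avoidance, the process by which branches of 1 cell steer clear of each other. In the alpha and gamma clusters each gene is a variable exon with its own promoter, spliced to constant exons that all genes of that cluster share and that encode a common intracellular end. Beta genes are single exons with no constant part. Promoter choice depends on the DNA-binding protein CTCF, on cohesin loops and on DNA methylation. The C-type genes (Pcdhac1, Pcdhac2, Pcdhgc3, Pcdhgc4 and Pcdhgc5) lie next to the constant exons and are less subject to random choice than the others.

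The introduced molecule is shown because the whole contrast rests on it. The labels give miR-128 without naming an arm or printing the mimic's bases. The mature mouse miR-128-3p of RefSeq, encoded in GRCm38.p6 at chr1:128202404-128202424 on the plus strand and at chr9:112118644-112118664 on the minus strand, has 21 bases, with the seed (bases 2 to 8) in capitals:
mmu-miR-128-3p: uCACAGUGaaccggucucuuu

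The values were log2 expression values made by the authors with RMA, which corrects background, equalises arrays and gives 1 value per transcript. Array medians lay between 7.40 and 7.54. The miR-Control replicate 3 array stood apart, at 42.5 on a first principal component that carried 35.4% of the variance, while the other 5 arrays lay between -18.7 and -0.23. With 3 arrays a group, the SE of a log2 fold change was 0.13 for the median row of the table and 0.10 to 0.24 among the members. No detection call was used, so it is unknown which rows were above background. Among 12 neural stem cell markers the control levels ran from 5.85 for Prom1 to 13.57 for Vim, with 12.61 for Fabp7 and 11.94 for Sox2.

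In the controls the alpha rows had log2 levels from 8.49 (Pcdha6) to 9.20 (Pcdha12), the beta rows from 6.19 (Pcdhb1) to 10.01 (Pcdhb11) and the gamma rows from 9.51 (Pcdhga4) to 11.95 (Pcdhga1). These levels rest on different probes and, in alpha and gamma, on a constant part that the rows may share, so they are not a ranking of transcript amounts. All alpha rows lay within 0.71 log2 units of each other in their mean over the 6 arrays. The beta rows spanned 3.84 units. The gamma rows spanned 2.43 units, with Pcdhga4 and Pcdhga9 alone below 10: their control levels were 9.51 ± 0.19 and 9.63 ± 0.07 (SD, n = 3), and the other 19 gamma rows had 10.91 or more.

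**Figure D1:**
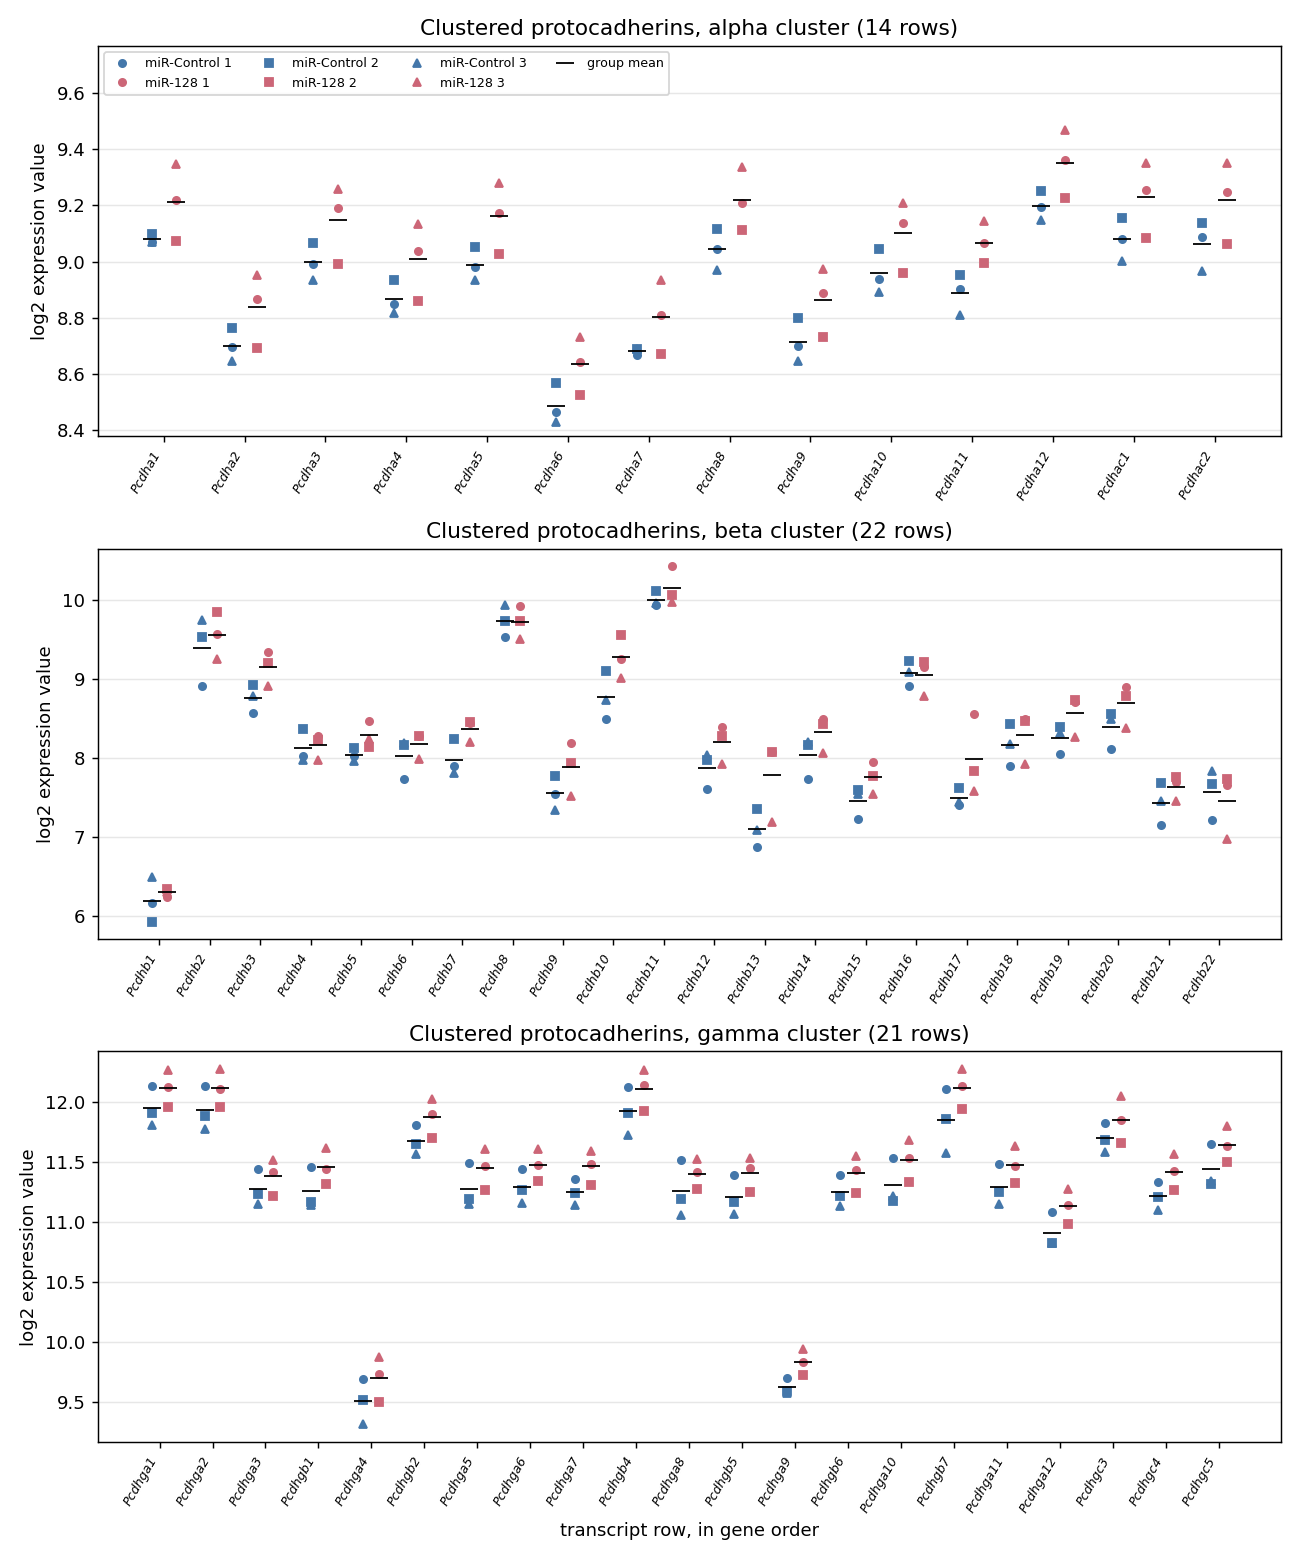
Log2 expression value (vertical axis) of every clustered protocadherin row on each of the 6 arrays, in gene order along the horizontal axis. Blue marks are miR-Control arrays, red marks are miR-128 arrays, the shape gives the replicate number and black dashes are group means; the alpha rows lie between 8.43 and 9.47, the beta rows between 5.93 and 10.43 and the gamma rows between 9.32 and 12.27.

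None of the 57 rows passed the test, and their values were higher with miR-128 in 54 of them. The median log2 fold change was 0.15 in the alpha cluster, 0.27 in the beta cluster and 0.19 in the gamma cluster, equal to 1.11-fold, 1.21-fold and 1.14-fold, against 0.02 over all 32025 rows. Of all rows, 56.8% had a higher mean with miR-128. All 14 alpha and all 21 gamma rows did, and 19 of 22 beta rows did. The rows of alpha and of gamma moved together on the arrays, as described below, so these counts are not counts of independent genes.

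The test was limma's moderated test with Benjamini-Hochberg adjustment over all rows, under which 0% of the table's rows had an adjusted p under 0.05 (0 of 32025). The adjusted p of the members ran from 0.607 to 0.997. Member rows with an unadjusted p under 0.05 numbered 4, all beta and all higher with miR-128, where 4.04% of all rows were higher and 3.11% lower at that p. The ordinary statistics of the same model gave 2 member rows at that p, where 3.78% of all rows were higher, and 0 after adjustment. With single miR-128 arrays left out, that count of 4 became 0 (replicate 1), 1 (replicate 2) or 11 (replicate 3). In these settings 2.36%, 3.77% and 2.94% of all rows were higher at that p. With single miR-Control arrays left out, the count was 3 (replicate 1), 4 (replicate 2) or 2 (replicate 3). There 4.25%, 3.55% and 6.59% of all rows were higher at that p. All 3 miR-128 arrays lay above all 3 controls in 3 member rows (Pcdha11, Pcdhb5 and Pcdhga9), or 5.26% of them, against 6.98% of all rows, and no member row had all 3 below, against 4.87% of all rows. That count depended on the scaling: after quantile normalization 11 member rows lay wholly higher, or 19.3% against 6.56% of all rows, and with each array centred on its median 0 did, against 4.92% of all rows.

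**Figure D2:**
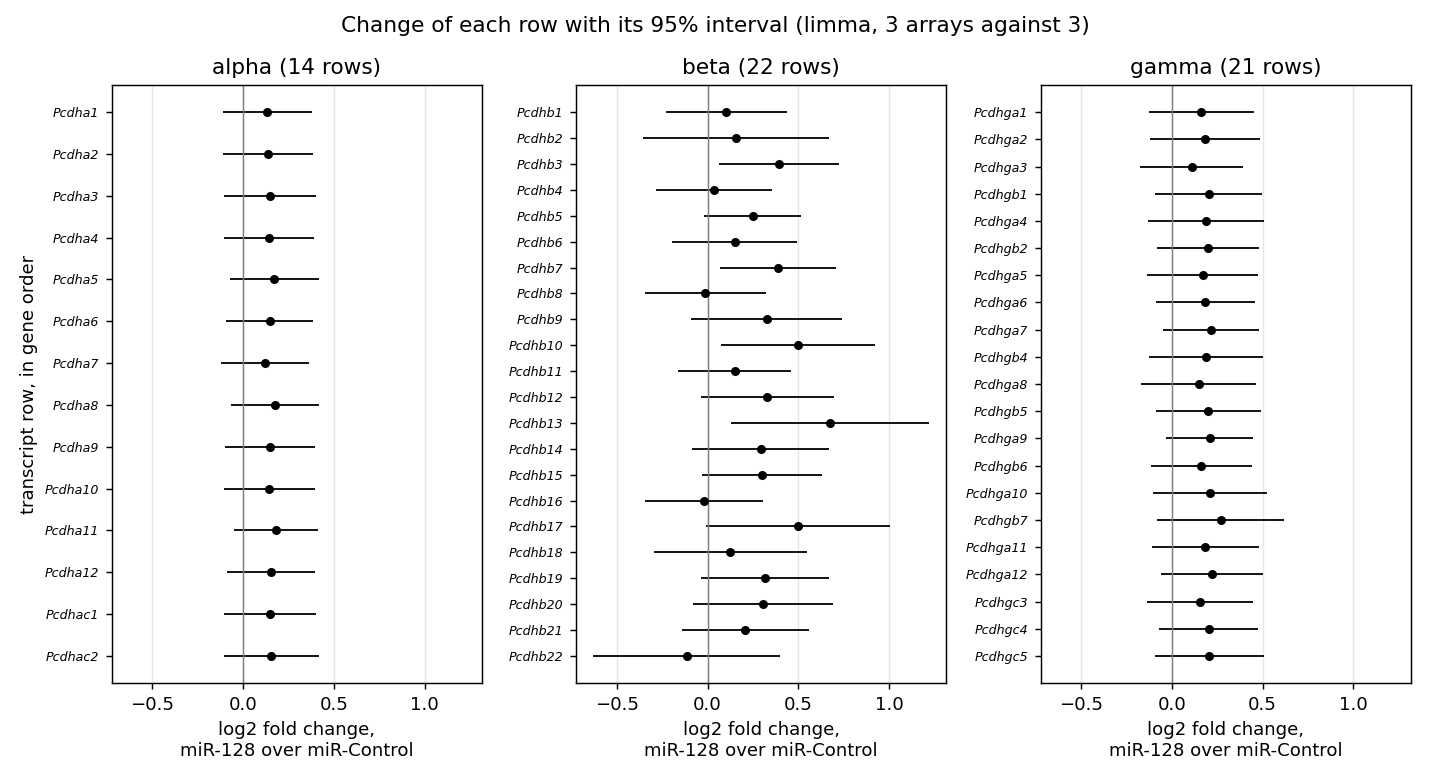
Log2 fold change of each row, miR-128 over miR-Control (horizontal axis), with its 95% interval from limma, for the 3 clusters in gene order from the top. The 35 alpha and gamma points all lie to the right of 0 with intervals that include 0, the beta points run from -0.11 to 0.68, and 4 beta intervals lie wholly above 0.

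The alpha rows formed a narrow band. The log2 fold changes of all 14 lay between 0.12 (Pcdha7) and 0.18 (Pcdha11), with SEs of 0.10 to 0.11 and adjusted p from 0.795 to 0.926. Pcdha12, the last of the randomly chosen alpha genes before the C types, had 9.19, 9.25 and 9.15 on the control arrays 1 to 3 against 9.36, 9.22 and 9.47 on the miR-128 arrays 1 to 3. The miR-128 replicate 2 value lay among the controls and the other two lay above them. The log2 fold change of Pcdha12 was 0.15 (SE 0.11, adjusted p = 0.876).

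Pcdha1, at the far end of the cluster, had 9.07, 9.10 and 9.07 on the control arrays against 9.22, 9.07 and 9.35 on the miR-128 arrays, a log2 fold change of 0.13 (SE 0.11, adjusted p = 0.913). Pcdha11 had the smallest unadjusted p of the cluster, with 8.90, 8.95 and 8.81 on the control arrays against 9.07, 8.99 and 9.14 on the miR-128 arrays. Its groups did not overlap, with a log2 fold change of 0.18 (SE 0.10, 95% interval -0.05 to 0.41, adjusted p = 0.795). Pcdha8 and Pcdha5, next in that order, differed by 0.18 and 0.17 (SE 0.11 for both), with adjusted p of 0.825 and 0.839.

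The C types of the alpha cluster lay within the range of the other alpha rows in control level and in log2 fold change. Pcdhac1 had 9.08, 9.16 and 9.00 on the control arrays against 9.25, 9.08 and 9.35 on the miR-128 arrays. Pcdhac2 had 9.09, 9.14 and 8.97 on the control arrays against 9.25, 9.06 and 9.35 on the miR-128 arrays. In both rows miR-128 replicate 2 lay within the control range. The log2 fold changes were 0.15 for Pcdhac1 (SE 0.11, adjusted p = 0.892) and 0.16 for Pcdhac2 (SE 0.11, adjusted p = 0.887), where the median of Pcdha1 to Pcdha12 was 0.15.

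The gamma rows also moved as a band, with log2 fold changes from 0.11 (Pcdhga3) to 0.27 (Pcdhgb7) and adjusted p from 0.759 to 0.949. The medians of the gamma A, gamma B and gamma C genes, which differ in the relatedness of their variable exons, were 0.18 over 12 rows, 0.20 over 6 rows and 0.20 over 3 rows. Pcdhga1, of the highest gamma A level, had 12.13, 11.91 and 11.81 on the control arrays against 12.12, 11.96 and 12.27 on the miR-128 arrays. Here miR-Control replicate 1 was as high as miR-128 replicate 1, and the log2 fold change was 0.16 (SE 0.13, adjusted p = 0.909). Pcdhga2 had nearly the same values, 12.14, 11.88 and 11.77 against 12.11, 11.96 and 12.27, a log2 fold change of 0.18 (SE 0.13, adjusted p = 0.886).

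Of the gamma B genes, Pcdhgb4 had 12.13, 11.91 and 11.73 on the control arrays against 12.14, 11.93 and 12.27 on the miR-128 arrays, with a log2 fold change of 0.19 (SE 0.14, adjusted p = 0.890). Pcdhgb7 had 12.10, 11.86 and 11.58 on the control arrays against 12.13, 11.94 and 12.27 on the miR-128 arrays, with a log2 fold change of 0.27 (SE 0.15, adjusted p = 0.801). In both rows the groups overlapped through the high miR-Control replicate 1. Pcdhga9 alone among gamma rows had groups that did not overlap, with 9.71, 9.59 and 9.58 on the control arrays against 9.83, 9.73 and 9.95 on the miR-128 arrays. Its log2 fold change was 0.21 (SE 0.11, 95% interval -0.03 to 0.45, adjusted p = 0.759), the smallest p of the cluster, followed by Pcdhga7 at 0.21 (SE 0.12, adjusted p = 0.781) and Pcdhga12 at 0.22 (SE 0.12, adjusted p = 0.786).

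The gamma C types include Pcdhgc4, known for its part in the survival of cortical interneurons, and Pcdhgc3, known for a part in dendrite branching. Pcdhgc3 had 11.82, 11.68 and 11.58 on the control arrays against 11.85, 11.66 and 12.05 on the miR-128 arrays, a log2 fold change of 0.15 (SE 0.13, adjusted p = 0.918). Pcdhgc4 had 11.34, 11.21 and 11.10 on the control arrays against 11.42, 11.27 and 11.56 on the miR-128 arrays, a log2 fold change of 0.20 (SE 0.12, adjusted p = 0.816). Pcdhgc5 had 11.65, 11.32 and 11.34 on the control arrays against 11.63, 11.50 and 11.80 on the miR-128 arrays, a log2 fold change of 0.21 (SE 0.13, adjusted p = 0.846). In all 3 C-type rows miR-128 replicate 3 was the highest array and miR-128 replicate 2 lay within the control range.

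The beta rows varied most among themselves, with log2 fold changes from -0.11 (Pcdhb22) to 0.68 (Pcdhb13). Pcdhb13 had 6.87, 7.35 and 7.08 on the control arrays against 8.08, 8.07 and 7.19 on the miR-128 arrays. Replicates 1 and 2 of miR-128 lay above every control and replicate 3 lay among them, so the groups overlapped. The log2 fold change of Pcdhb13 was 0.68 (SE 0.24, 95% interval 0.13 to 1.22, adjusted p = 0.607), equal to 1.60-fold, and it became 0.97 when the third miR-128 array was left out and 0.53 when the first was.

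Pcdhb7 had 7.89, 8.24 and 7.81 on the control arrays against 8.44, 8.45 and 8.20 on the miR-128 arrays, a log2 fold change of 0.39 (SE 0.14, 95% interval 0.07 to 0.71, adjusted p = 0.611). Pcdhb3 had 8.57, 8.93 and 8.79 on the control arrays against 9.35, 9.21 and 8.91 on the miR-128 arrays, a log2 fold change of 0.39 (SE 0.15, 95% interval 0.06 to 0.72, adjusted p = 0.630). Both overlapped through miR-Control replicate 2 and miR-128 replicate 3. The remaining beta row with an unadjusted p under 0.05 was Pcdhb10 at 0.50 (SE 0.19, adjusted p = 0.636), with 8.49, 9.11 and 8.74 on the control arrays against 9.26, 9.56 and 9.01 on the miR-128 arrays.

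The beta rows of highest mean level were Pcdhb11 and Pcdhb8. Pcdhb11 had 9.94, 10.12 and 9.97 on the control arrays against 10.43, 10.07 and 9.98 on the miR-128 arrays, so miR-128 replicate 1 alone lay above the controls. Its log2 fold change was 0.15 (SE 0.14, adjusted p = 0.929) and it was 0.01 without that array. Pcdhb8 had 9.54, 9.73 and 9.95 on the control arrays against 9.92, 9.74 and 9.51 on the miR-128 arrays, overlapping throughout, with a log2 fold change of -0.01 (SE 0.15, 95% interval -0.35 to 0.32, adjusted p = 0.997).

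The other two beta rows with a lower mean were Pcdhb16 at -0.02 (SE 0.14, adjusted p = 0.997) and Pcdhb22 at -0.11 (SE 0.23, adjusted p = 0.984). These 3 genes do not neighbour each other in the RefSeq gene order. Without miR-128 replicate 3 all 57 member rows had a higher mean, these 3 included. Pcdhb17 at 0.50 (SE 0.22, adjusted p = 0.706) had its highest value on miR-128 replicate 1, with 7.40, 7.63 and 7.44 on the control arrays against 8.55, 7.83 and 7.58 on the miR-128 arrays. Pcdhb5, the beta row whose groups did not overlap, had 8.02, 8.13 and 7.97 on the control arrays against 8.47, 8.15 and 8.24 on the miR-128 arrays, a log2 fold change of 0.25 (SE 0.12, 95% interval -0.02 to 0.52, adjusted p = 0.730).

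The array profiles differed between the clusters. Relative to each row's control mean, the alpha rows averaged -0.01, 0.06 and -0.06 on the control arrays 1 to 3 against 0.17, 0.02 and 0.27 on the miR-128 arrays 1 to 3. The gamma rows averaged 0.18, -0.04 and -0.13 on the control arrays against 0.20, 0.03 and 0.34 on the miR-128 arrays. In both clusters the miR-128 replicate 3 array was the highest in every row, 14 of 14 and 21 of 21, and miR-128 replicate 2 averaged within the control range. The lowest array was miR-Control replicate 3, the array that stood apart, in 13 of 14 alpha rows and in 18 of 21 gamma rows.

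The beta rows averaged -0.20, 0.15 and 0.05 on the control arrays against 0.41, 0.34 and -0.02 on the miR-128 arrays. There the miR-128 replicate 3 array was the highest in none of the 22 rows, miR-128 replicate 1 was the highest in 12, and miR-Control replicate 1 was the lowest in 14. The replicates that raised the group mean thus were numbers 1 and 3 in alpha and gamma and numbers 1 and 2 in beta. Whether the clusters differ in their response to miR-128 was not tested.

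**Figure D3:**
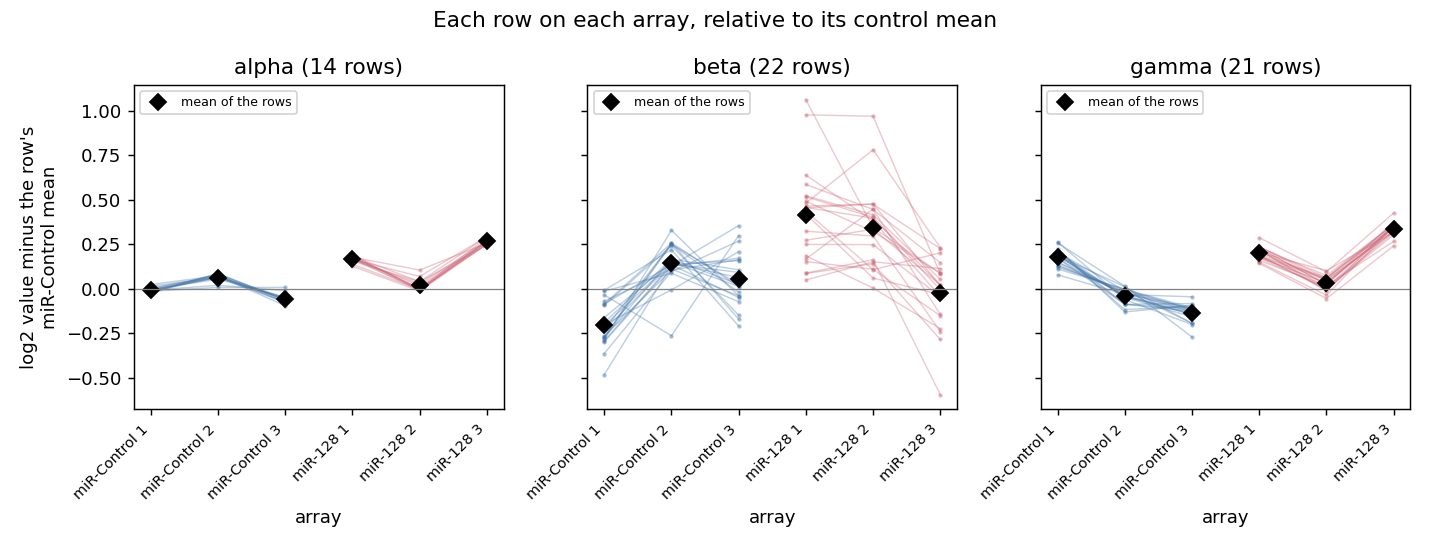
Log2 value of each row minus that row's mean in the 3 controls (vertical axis) on the 6 arrays (horizontal axis), for the 3 clusters; thin lines join the values of 1 row within a group and black diamonds are means over the rows. The alpha and gamma lines run close together and peak at miR-128 replicate 3, while the beta lines spread and have their highest mean, 0.41, at miR-128 replicate 1.

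Leaving out single arrays moved the medians without turning them. The alpha median was 0.15 with all arrays and 0.09 without miR-128 replicate 3. The gamma median of 0.19 became 0.12 without miR-Control replicate 3 and also 0.12 without miR-128 replicate 3. The beta median of 0.27 became 0.16 without miR-Control replicate 1 and 0.17 without miR-128 replicate 1. Without miR-Control replicate 3, the array that stood apart, the alpha median was 0.12 and the beta median 0.28. With arrays weighted by their fit to the model, the beta median was 0.41 and the gamma median 0.085. Each array left out also changed the median of all rows, which lay between 0.01 and 0.05.

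Rows of a cluster that share constant exons were compared for how far they vary as one. Of the variation of the alpha rows over the 6 arrays, taken around each row's own mean, 96.6% was carried by the mean of the 14 rows. For the gamma rows it was 94.7%, and for the beta rows, which have no constant exons, it was 63.9%. After the cluster mean was taken away, the rows had an SD over arrays of 0.02 in alpha, 0.04 in gamma and 0.17 in beta. For scale, the same share was 97.6% in the median of 869 named genes with at least 3 distinct transcript rows, with quartiles at 90.2% and 99.2%. The alpha and gamma shares thus lay between these quartiles. The share depends on the number of rows, being larger for few rows that vary apart. The single genes were not matched to the clusters in that number, so the comparison is rough. Which probes each row holds is not stated in the labels, so the part of a value that comes from the constant exons was not separated from the part of the variable exon. The 6 arrays are the only points behind these shares, and they are given with no test.

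What was particular to single rows was small in alpha and gamma. Set against the mean of the other rows of its cluster on the same array, the miR-128 minus control difference lay between -0.03 and 0.03 for the alpha rows. It lay between -0.08 (Pcdhga3) and 0.08 (Pcdhgb7) for the gamma rows. Pcdhga3 was at -0.01, 0.00 and 0.01 on the control arrays against -0.06, -0.09 and -0.10 on the miR-128 arrays, below the other gamma rows on each miR-128 array. Among the beta rows the difference ran from -0.38 for Pcdhb22 to 0.45 for Pcdhb13. Pcdhb13 was at -0.03, 0.11 and -0.08 on the control arrays against 0.59, 0.66 and 0.11 on the miR-128 arrays. Pcdhb16 was at 0.04, 0.00 and -0.04 on the control arrays against -0.34, -0.21 and -0.28 on the miR-128 arrays. These rows were picked after their values were seen, and the differences have no test.

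**Figure D4:**
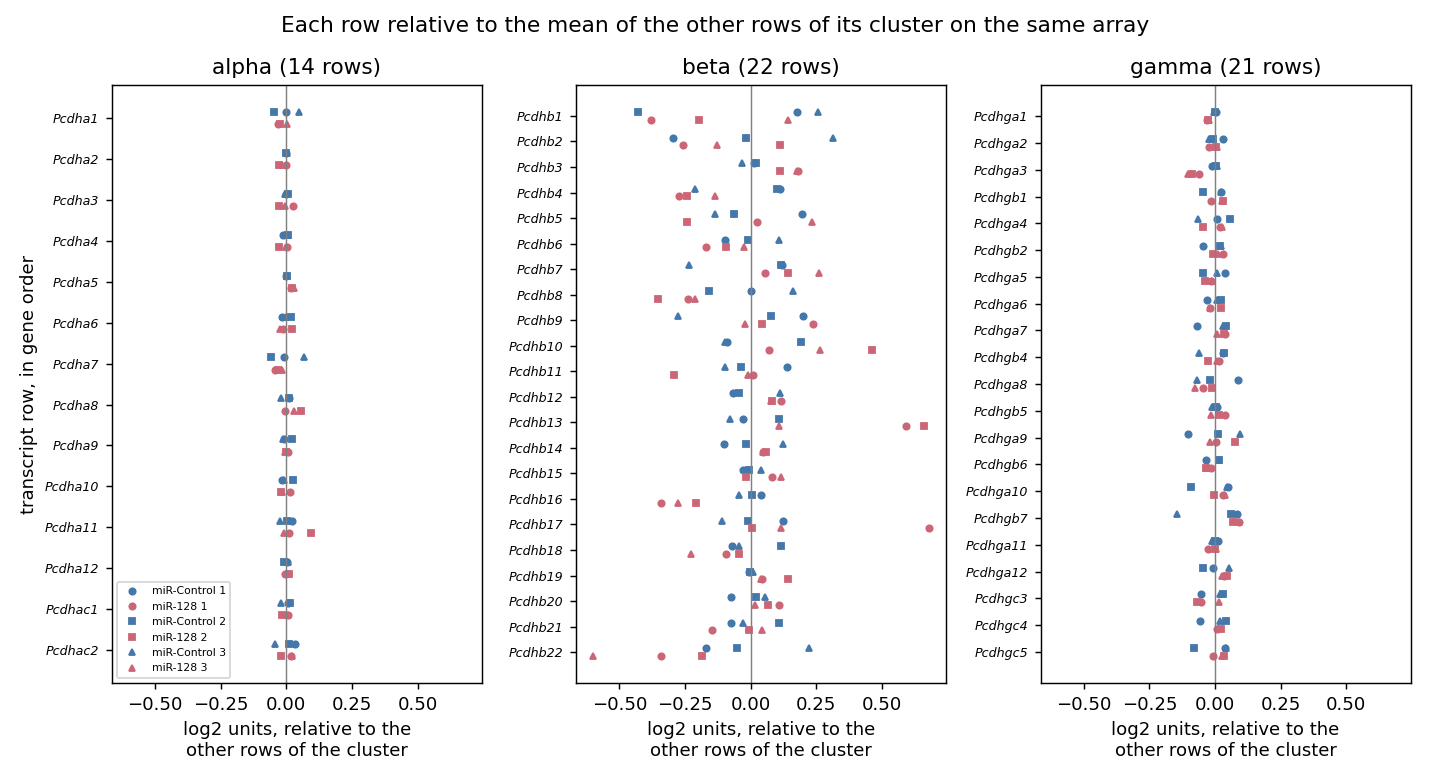
Value of each row minus the mean of the other rows of its cluster on the same array, in log2 units around the control mean (horizontal axis), for each row in gene order from the top; blue marks are miR-Control arrays, red marks are miR-128 arrays and shapes give replicate numbers. The miR-128 minus control difference stays within 0.03 of 0 in alpha and reaches 0.45 for Pcdhb13 and -0.38 for Pcdhb22 in beta.

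The non-clustered protocadherins, which lie outside these clusters and act in cell sorting and axon growth, were also higher in most rows. Of 11 measured genes 10 had a higher mean and 1 a lower one, with a median log2 fold change of 0.16, and 0 passed. Of these, 4 were higher and 0 lower at an unadjusted p under 0.05. Among all rows 4.04% were higher and 3.11% lower at that p, and 56.8% had a higher mean. Pcdh19, a gene in which mutations cause an epilepsy in humans, had 8.02, 7.93 and 7.98 on the control arrays against 8.53, 8.21 and 8.40 on the miR-128 arrays, a log2 fold change of 0.40 (SE 0.11, adjusted p = 0.478). Pcdh17 differed by 0.33 (SE 0.12, adjusted p = 0.607), and in both rows all 3 miR-128 arrays lay above all 3 controls.

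The giant Fat and Dachsous cadherins and the seven-pass Celsr cadherins of planar polarity were counted with Fjx1, the relative of fly four-jointed, and with Cdhr1. Of these 10 genes 9 had a higher mean, against 56.8% of all rows, with a median of 0.20, and 0 passed. At an unadjusted p under 0.05, 2 were higher and 0 lower, against 4.04% and 3.11% of all rows. Fat3 differed by 0.50 (SE 0.12, adjusted p = 0.416) and Dchs1 by 0.41 (SE 0.14, adjusted p = 0.581).

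Genes that organise the locus did not pass either. Of 27 measured regulators 19 had a higher and 8 a lower mean, with a median of 0.10, where 56.8% of all rows had a higher mean. At an unadjusted p under 0.05, 1 was higher and 2 lower, against 4.04% and 3.11% of all rows. CTCF binds the promoters and the enhancers of the alpha and gamma clusters, and Ctcf had a log2 level of 10.48 ± 0.14 in the controls and 10.49 ± 0.09 with miR-128 (SD, n = 3). Its log2 fold change was 0.01 (SE 0.11, 95% interval -0.25 to 0.27, adjusted p = 0.997). Of the cohesin genes, Smc1a, which encodes a core ring subunit, had 11.11, 10.73 and 10.41 on the control arrays against 9.71, 10.12 and 10.26 on the miR-128 arrays. The lowest control was above the highest miR-128 value, with a log2 fold change of -0.72 (SE 0.20, 95% interval -1.17 to -0.26, adjusted p = 0.465). The other cohesin subunit genes of the list did not share 1 direction. Smc3 was lower at -0.27 (SE 0.14), and Rad21, Stag1 and Stag2 were higher at 0.29, 0.21 and 0.11 (SE 0.17, 0.11 and 0.13).

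Wapl, which releases cohesin from DNA, differed by 0.13 (SE 0.12, adjusted p = 0.928). Smchd1, a chromatin protein whose loss raises clustered protocadherin transcripts in mice, differed by -0.17 (SE 0.13, adjusted p = 0.902). Rest, a repressor of neuronal genes with binding sites in the locus, differed by -0.17 (SE 0.14, adjusted p = 0.913).

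Genes of signalling and processing partners, among them the kinases Fyn, Ptk2 and Ptk2b that the intracellular end binds or inhibits and the actin-regulating WAVE complex, had a higher mean in 17 of 29 and a lower one in 12, with a median of 0.09. Of these, 0 were higher and 1 lower at an unadjusted p under 0.05, and 0 passed. Among all rows 4.04% were higher and 3.11% lower at that p, and 56.8% had a higher mean. Dock1, an activator of Rac, differed by -0.31 (SE 0.12, adjusted p = 0.634) and the kinase gene Wnk1 by -0.39 (SE 0.20, adjusted p = 0.760).

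Markers of other cells that a neurosphere can hold were read beside these values. The 17 neuron markers had 10 higher and 7 lower means, with a median of 0.02, and averaged -0.06 to 0.04 in the controls and -0.01 to 0.05 with miR-128. The 11 oligodendrocyte lineage markers had 10 higher means, with a median of 0.22, and averaged -0.06 to 0.05 in the controls and 0.14 to 0.25 with miR-128. The 9 astrocyte markers had 7 higher means, with a median of 0.07, and averaged -0.05 to 0.03 against 0.04 to 0.14. The 8 microglia markers had 8 higher and 0 lower means, with a median of 0.05. The 10 vascular and mesenchymal markers had 6 higher and 4 lower means, with a median of 0.01. The 12 neural stem cell markers had 7 higher and 5 lower means, with a median of 0.06. The average of the oligodendrocyte lineage markers, like that of the astrocyte markers, thus was higher on each miR-128 array than on any control. Of single genes, 3 of the 11 oligodendrocyte lineage markers lay wholly higher and 0 wholly lower. Of the 9 astrocyte markers 2 lay wholly higher and 2 wholly lower. Among all rows 6.98% lay wholly higher and 4.87% wholly lower, and 56.8% had a higher mean. The part of any of these cell types in the protocadherin values was not tested.

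By the same naming rule the marker genes of small p given here were Cspg4 at 0.35 for the oligodendrocyte lineage, Slc1a2 at 0.47 and S100b at 0.32 for astrocytes and Dcx at 0.24 and Slc17a6 at 0.19 for neurons. They were Fabp7 at -0.30 and Hes5 at 0.33 for neural stem cells, Aif1 at 0.16 and P2ry12 at 0.14 for microglia and Tek at -0.17 and Col1a1 at 0.12 for vascular and mesenchymal cells. None of these passed. Some had low control levels: 6.98 for Dcx, 5.31 for Slc17a6, 6.26 for Aif1, 5.68 for P2ry12 and 6.94 for Tek. The median row of the table had a mean of 7.46 over the 6 arrays. Whether these rows were above background is unknown.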

How the data were processed

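The 6 samples were exon arrays of neural stem cells, 3 with miR-128 and 3 with miR-Control, grouped and numbered by sample title. The deposited values are log2 values per RefSeq transcript, for which the submitters' processing notes name RMA and affy as the authors' tools, with no version or genome build. RMA shrinks fold changes and summarises all probes of a transcript, so rows that share exons may share signal. Row names were matched without version to the RefSeq table of assembly GRCm38.p6, which named 25343 of 32025 rows.

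limma 3.58.1 in R 4.3.3 was fitted to the whole table (lmFit and eBayes, unpaired, two-sided, no filter), with Benjamini-Hochberg adjustment over all rows and a threshold of 0.05. ± values are SDs over 3 arrays. The fit was tested on simulated data. The array number limits the precision. Labels call the replicates biological, and p-values measure the spread between these arrays.

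Named in full are the 2 rows of highest level of alpha 1 to 12, beta, gamma A and gamma B, all C types, the 3 rows of smallest p per cluster, the 2 genes of smallest p per other list, and Ctcf, Smchd1, Rest and Wapl; some genes that this rule names are not reported here. Pcdhb5, Pcdhb10, Pcdhb16, Pcdhb17, Pcdhb22, Pcdhga3, Smc3, Rad21, Stag1 and Stag2 were named after their values were seen. The 10 other lists held 150 genes, 144 with a row, each by its row of highest mean. Members and lists were chosen with earlier results of these data known.

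Alternatives were a replicate block, quantile normalization, median centring, rows above the median level, repeated rows left out, array weights, a trended robust variance, each array left out and, added later, ordinary statistics. The labels state no pairing of the replicate numbers. Deviations of same-numbered arrays correlated at -0.0028, 0.17 and 0.05, and those of differently numbered arrays at -0.24 to 0.19. With so few arrays a group these values cannot decide whether the arrays were paired.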

Additional observations from a re-analysis of the deposited data

How the results depend on the processing

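In every alternative tried 0 of the clustered protocadherin rows passed, and the median change stayed above 0 in each cluster and moved by less than the spread between replicates. Over the settings with all arrays the median ran from 0.12 to 0.16 in alpha, 0.24 to 0.41 in beta and 0.085 to 0.20 in gamma, and with 1 array left out from 0.09 to 0.22, 0.16 to 0.36 and 0.12 to 0.28. With the replicate block, for which the labels state no pairing, 6 member rows, all beta, were higher at an unadjusted p under 0.05 (4.34% of all rows were), against 4. Of all rows, 4 passed when those above the median level were tested, where 1487 had an unadjusted p under 0.05, and 24 passed under array weights, where 4577 had one. With 1 array left out that count ran from 1285, without miR-128 replicate 1, to 3981, without miR-Control replicate 3.

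Quantile normalization gave 11 member rows whose groups did not overlap, 8 of them alpha and 2 beta, where 6.56% of all rows lay wholly higher. It gave 5 member rows higher at an unadjusted p under 0.05, 1 alpha and 4 beta, against 4.07% of all rows. Median centring gave 0 such rows without overlap, with 0 in alpha, 0 in beta and 0 in gamma, where 4.92% of all rows lay wholly higher, and 2 rows higher at an unadjusted p under 0.05, both beta (2), against 2.57% of all rows. Array weights gave 14 rows at that p, all beta (14), against 7.62% of all rows. Ordinary statistics, added after the data were seen, gave 2 rows, 1 alpha, 1 gamma and 0 beta, against 3.78% of all rows. With 1 array left out, rows higher at that p ran from 0 to 11 over all members. They ran from 0 to 11 in beta and 0 to 3 in gamma. Of all rows, 2.36% were higher at that p where members had 0 and 2.94% where members had 11. Rows without overlap, which fewer arrays make easier, ran from 3 to 28. They ran from 1 to 14 in alpha, 1 to 15 in beta and 1 to 18 in gamma. The 3, without miR-128 replicate 1, were 5.26% of members against 11.2% of all rows wholly higher. The 28, without miR-128 replicate 2, were 49.1% against 13.1%. Without miR-Control replicate 3 the members had 7.02% against 21.5%. Without miR-Control replicate 1 they had 35.1% against 12.3%, and without miR-Control replicate 2 31.6% against 11.4%. Without miR-128 replicate 3 they had 29.8% against 11%. The rows of alpha and of gamma moved together, so these are not counts of independent genes.

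The sign turned in at least 1 of 14 settings for 8 member rows, 7 beta and 1 gamma: Pcdhb1, Pcdhb2, Pcdhb4, Pcdhb8, Pcdhb16, Pcdhb18, Pcdhb22, which ran from -0.30 to 0.16, and Pcdhga8. Of the genes named by rule it turned for Pcdhb8, which was at 0.16 under array weights and between -0.11 and 0.094 with 1 array left out, and for Ctcf, which was at -0.017 after median centring, -0.049 under array weights and between -0.067 and 0.066 with 1 array left out. The cause was not tested. Each array's signal over background is unknown, so the lowest row, Pcdhb1, may carry little signal.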
